A study of Mus musculus with 12 samples.

Results

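Nr4a1, Nr4a2, Nr4a3, Egr1, Egr2 and Egr3 are 6 transcription factor genes known as early targets of the T cell antigen receptor. They were taken by name from the 18601 genes of the matrix and followed in CD3-positive cells, defined as cells with 3 or more unique molecular identifiers (UMIs) of Cd3d, Cd3e and Cd3g together. These were 29623 of 32763 cells, and all 6 genes had 1 row each. The cells were CD4 T cells recovered from recipients of transferred Th1 cells. The KO donor cells carried Il23reGFP/eGFP at the interleukin-23 receptor gene and the control donor cells Il23rwt/eGFP, so both genotypes hold at least 1 eGFP allele. Colon epithelium and small intestinal lamina propria (LP) had 1 KO and 1 control library each, and colon LP and spleen had 2 of each. Replicate 1 libraries came only from colon LP and spleen. The labels do not say whether replicates were separate animals, so the p-values measure the spread between these libraries, which may be technical. Each fit also pools that spread over genes. The sources used here give no strain or age of the recipients and no time after transfer.

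NR4A proteins are orphan nuclear receptors whose genes are transcribed within the first wave after receptor engagement, downstream of calcium and calcineurin signalling. EGR proteins are zinc finger factors induced in the same wave, Egr1 largely through the ERK arm of the MAP kinase pathway. In T cells Nr4a1 (Nur77) is widely used as a reporter of antigen receptor signalling, the NR4A family is linked to tolerance and exhaustion, and Egr2 and Egr3 are linked to restraint of activation through Cbl-family ligases and other targets. NAB proteins, encoded by Nab1 and Nab2, bind EGR factors as co-repressors.

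The libraries held 764 to 3661 CD3-positive cells and 1902990 to 13248318 UMIs in them, with medians of 2273 to 5690 UMIs per cell. Levels are given as CPM, the UMIs of a gene per 1000000 UMIs of the library's CD3-positive cells, and all values below are of these cells unless stated. Cd4 measured 199 to 386 CPM and Cd8a 0.0758 to 18.3 CPM in the 12 libraries. Trac and Trbc2 of the T cell list and the 2 gamma delta T cell genes had no row under those names in the matrix. Gamma delta T cells could therefore not be checked by them. The small intestinal KO library stood apart in that 50.6% of its cells were CD3-positive, against 77.9% to 98.4% in the other 11. The targeted gene, Il23r, gave 3 to 33 UMIs per library in CD3-positive cells and was not lower in KO throughout. It measured 2.49 and 2.17 CPM in KO against 0.994 and 1.67 CPM in control colon LP, 3.36 and 0.682 CPM in KO against 1.26 and 0.994 CPM in control spleen, 4.20 CPM in KO against 3.09 CPM in control small intestinal LP, and 0.314 CPM in KO against 0.605 CPM in control epithelium. The labels do not tell whether its 3′ tags lie outside the altered part of the allele, so Il23r checks no label, and KO and control name libraries by their labels throughout. Cell barcodes seen in 2 or more libraries numbered 677 of 32077, carried by 1363 cells (4.16%). Per the labels' protocols, spleens were broken up mechanically and intestinal cells were released with a dissociation kit, so tissue and preparation cannot be told apart in any contrast of gut and spleen.

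The sequences before the transcription starts are shown here for the 3 Nr4a genes and Egr2, whose promoters all hold the same short element. The part of this element in the levels was not tested. RefSeq promoter windows on GRCm38.p6, running from 250 bases before to 50 bases after a start, were found for Nr4a1, Nr4a2, Nr4a3 and Egr2. Egr1 and Egr3 are not shown. The 250 bases before the start are printed 5′ to 3′ on the gene's strand, with capitals marking CGTCA or its reverse complement TGACG, the half-site of the cAMP response element. Egr2 had 5 windows, and the one whose start matched the most annotated protein-coding transcripts was taken.
Nr4a1 (chr15:101266596-101266845, plus strand): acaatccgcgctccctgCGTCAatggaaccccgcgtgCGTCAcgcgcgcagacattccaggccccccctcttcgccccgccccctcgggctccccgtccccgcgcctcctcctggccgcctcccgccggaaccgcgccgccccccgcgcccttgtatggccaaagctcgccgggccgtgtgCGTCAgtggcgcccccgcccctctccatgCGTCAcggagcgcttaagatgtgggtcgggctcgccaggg
Nr4a2 (chr2:57124004-57124253, minus strand): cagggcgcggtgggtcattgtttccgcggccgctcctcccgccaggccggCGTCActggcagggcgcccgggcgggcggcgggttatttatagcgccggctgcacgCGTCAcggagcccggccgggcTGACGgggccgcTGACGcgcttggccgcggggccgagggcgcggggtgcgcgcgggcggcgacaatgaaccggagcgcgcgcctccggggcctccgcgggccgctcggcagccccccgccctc
Nr4a3 (chr4:48045055-48045304, plus strand): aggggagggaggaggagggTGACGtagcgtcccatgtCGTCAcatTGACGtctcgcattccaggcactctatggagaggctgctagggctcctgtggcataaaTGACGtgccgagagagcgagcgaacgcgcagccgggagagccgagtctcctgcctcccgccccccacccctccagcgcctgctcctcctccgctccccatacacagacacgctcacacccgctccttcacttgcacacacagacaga
Egr2 (chr10:67537620-67537869, plus strand): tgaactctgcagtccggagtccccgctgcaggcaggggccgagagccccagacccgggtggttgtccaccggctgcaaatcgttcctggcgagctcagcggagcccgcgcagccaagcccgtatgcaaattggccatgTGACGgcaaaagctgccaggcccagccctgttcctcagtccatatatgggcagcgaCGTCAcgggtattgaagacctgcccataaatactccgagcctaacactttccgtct

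Each of the 3 Nr4a windows held 4 half-sites on either strand, and the Egr2 window held 2. Of 32851 RefSeq windows of the same length, 20.8% held at least 1 half-site, 5.01% at least 2 and 0.231% at least 4. The Egr2 window also held 1 CArG box, the serum response element core, which 1.63% of all windows held. The full element TGACGTCA, the NR4A monomer site AAAGGTCA and the EGR site GCGTGGGCG were searched on both strands (the full element would hold both half-site forms) and not found in the 4 windows, against 1.79%, 1.51% and 0.612% of all windows with at least 1. These matches are descriptions of the letters. On the annotated mouse genome the genes span chr15:101254269-101274795 (Nr4a1), chr2:57106830-57124003 (Nr4a2), chr4:48045153-48086447 (Nr4a3), chr18:34859823-34864984 (Egr1), chr10:67535475-67542188 (Egr2) and chr14:70077203-70082614 (Egr3), so the windows of Nr4a1 and Egr2, and part of that of Nr4a3, lie inside the annotated gene.

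The 3 Nr4a genes were far higher in gut than in spleen cells, and within the gut they were lower in the epithelium than in colon LP. Nr4a1 measured 66.3 CPM in the KO and 87.0 CPM in the control library of colon epithelium, and 344 CPM in the KO and 238 CPM in the control library of small intestinal LP. In colon LP it measured 181 and 290 CPM in the KO libraries and 219 and 159 CPM in the control libraries. In spleen it measured 10.5 and 5.68 CPM in the KO libraries and 5.16 and 4.37 CPM in the control libraries. Every gut library was therefore above every spleen library, and both epithelial libraries were below every LP library, while small intestinal and colon LP overlapped.

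Nr4a2 (Nurr1) followed the same order. It measured 53.8 CPM in the KO and 69.3 CPM in the control library of the epithelium, and 181 CPM in the KO and 130 CPM in the control library of small intestinal LP. Colon LP held 194 and 180 CPM in the KO libraries and 186 and 88.8 CPM in the control libraries. Spleen held 2.96 and 4.17 CPM in the KO libraries and 1.81 and 1.99 CPM in the control libraries. No gut library overlapped with spleen, and the lowest LP library, control replicate 2 of colon, was still above the epithelium.

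Nr4a3 (Nor1) was the scarcest Nr4a transcript in UMIs, with 2083 in all libraries together. It measured 7.34 CPM in the KO and 8.64 CPM in the control library of the epithelium, and 41.0 CPM in the KO and 23.1 CPM in the control library of small intestinal LP. Colon LP held 47.5 and 46.8 CPM in the KO libraries and 68.5 and 14.1 CPM in the control libraries. Spleen held 1.38 and 1.06 CPM in the KO libraries and 1.12 and 0.497 CPM in the control libraries, from 5 to 14 UMIs each. The tissues kept the order of Nr4a2, with the widest spread among the colon LP libraries.

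**Figure D1:**
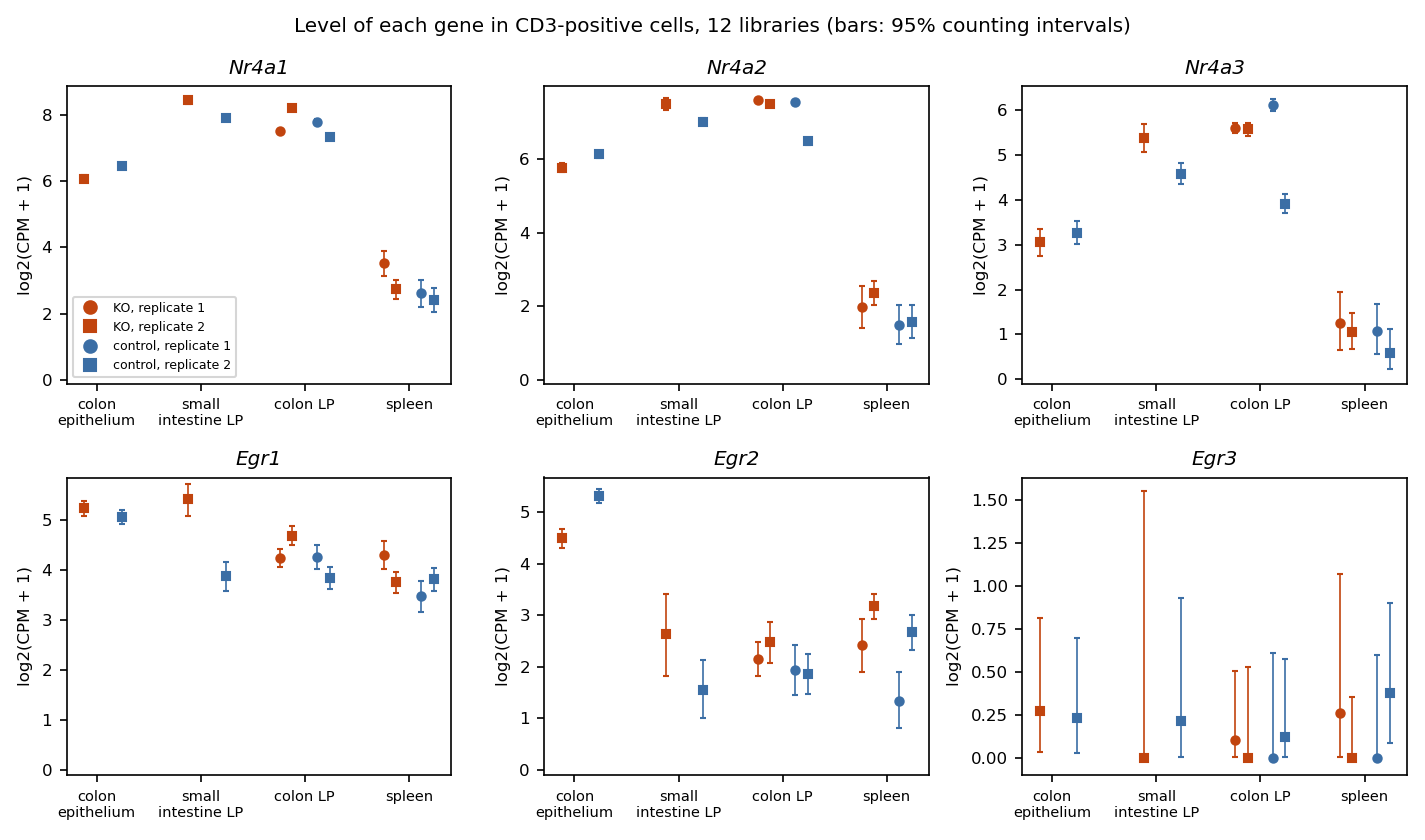
Level of each gene, as log2(CPM + 1), in CD3-positive cells of each library, by tissue, with KO (orange) left of control (blue), replicate 1 as circles and replicate 2 as squares. Bars are exact Poisson 95% intervals and cover counting error only. The Nr4a genes separate gut from spleen in every library, Egr2 is highest in the 2 epithelial libraries (21.6 and 38.9 CPM), and Egr3 has 0 to 3 UMIs per library.

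Egr2 had another pattern, with its high level in the colon epithelium. It measured 21.6 CPM in the KO and 38.9 CPM in the control library there, against 5.25 CPM in the KO and 1.95 CPM in the control library of small intestinal LP. Colon LP held 3.47 and 4.58 CPM in the KO libraries and 2.84 and 2.64 CPM in the control libraries. Spleen held 4.35 and 8.03 CPM in the KO libraries and 1.53 and 5.37 CPM in the control libraries. The 2 epithelial libraries were above the other 10, which overlapped among themselves. The epithelium held 656 of the 1005 Egr2 UMIs of all libraries.

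Egr1 spanned a narrower range. It measured 36.7 CPM in the KO and 32.2 CPM in the control library of the epithelium, and 41.5 CPM in the KO and 13.6 CPM in the control library of small intestinal LP. Colon LP held 17.96 and 24.7 CPM in the KO libraries and 18.2 and 13.3 CPM in the control libraries. Spleen held 18.8 and 12.5 CPM in the KO libraries and 10.2 and 13.0 CPM in the control libraries. Both epithelial libraries were above all spleen and colon LP libraries, and the KO library of small intestinal LP was the highest of the 12, with its control library among those of spleen and colon LP.

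Egr3 was nearly undetected, with 11 UMIs over all CD3-positive cells. It had 0 UMIs in 5 libraries, which allows up to 0.227 to 1.58 CPM in them by the limit of 3 counts, and 1 to 3 UMIs in the others. It did not pass the filter on low counts, so 5 of the 6 genes were tested in the tissue and genotype fits. Intervals and limits of this kind cover counting error only.

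In the tissue tests, all Nr4a genes rose in every gut compartment against spleen. All tissue folds come from edgeR's quasi-likelihood test on summed UMIs over the 12 libraries with genotype as a term, with Benjamini-Hochberg adjustment over 11305 genes. In colon LP against spleen, where 37.6% of genes were called, the log2 fold changes were 5.31 ± 0.31 (SE) for Nr4a1, 6.10 ± 0.36 for Nr4a2 and 5.75 ± 0.61 for Nr4a3, with adjusted p of 1.0e-06, 1.5e-06 and 0.00014. For small intestinal LP against spleen, where 20.2% were called, they were 5.62 ± 0.33, 5.88 ± 0.38 and 5.06 ± 0.68, with adjusted p of 1.7e-06, 4.7e-06 and 0.00099. For colon epithelium against spleen, where 7.09% were called, they were 3.60 ± 0.31, 4.46 ± 0.37 and 2.99 ± 0.70, with adjusted p of 0.00012, 0.00010 and 0.033. Because a sum over cells does not part fewer expressing cells from less RNA per cell, these folds cannot tell the 2 apart.

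The epithelium differed from spleen in all 5 tested genes, since Egr2 and Egr1 rose there too. Egr2 had a log2 fold change of 2.66 ± 0.45 (edgeR, adjusted p = 0.0051) and Egr1 of 1.297 ± 0.29 (adjusted p = 0.021). Against spleen, Egr2 did not pass in either LP, at -0.33 ± 0.41 in colon and -0.55 ± 0.61 in small intestine (adjusted p = 0.56 and 0.57). Egr1 did not pass there either, at 0.66 ± 0.25 and 0.96 ± 0.32 (adjusted p = 0.060 and 0.052). DESeq2 called both (adjusted p = 0.034 and 0.026), and so did edgeR in colon LP without its control replicate 2 or either small intestinal library, and in small intestinal LP without its control library or either colon LP control library. The epithelial calls of Nr4a3, Egr1 and Egr2 rested on few libraries. Nr4a3 lost its call without any one of the 4 spleen libraries, KO replicate 2 of colon LP or either epithelial library (adjusted p = 0.054 to 0.18), Egr1 without control replicate 1 or KO replicate 2 of spleen or either epithelial library (0.051 to 0.20), and Egr2 without the control epithelial library (1.67, adjusted p = 0.081). Both Nr4a3 and Egr1 also lost it in thinned cells (adjusted p = 0.14 and 0.083), Nr4a3 with no filter on low counts (0.086) and Egr1 with all cells counted (0.26).

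Within the gut, the epithelium was lower than colon LP in the Nr4a genes and higher in Egr2. Against colon LP, where 19.4% of genes were called, the epithelium was lower, with log2 fold changes of -1.71 ± 0.33 for Nr4a1, -1.65 ± 0.36 for Nr4a2 and -2.76 ± 0.63 for Nr4a3 (edgeR, adjusted p = 0.0068, 0.012 and 0.017). It was higher for Egr2, at 2.99 ± 0.45 (adjusted p = 0.0024). Egr1 did not pass, at 0.64 ± 0.29 (adjusted p = 0.14). Against small intestinal LP, where 4.51% were called, Nr4a1 was lower in the epithelium at -2.02 ± 0.36 (adjusted p = 0.013) and Egr2 was higher at 3.21 ± 0.64 (adjusted p = 0.020). Nr4a2 and Nr4a3 did not pass there, at -1.42 ± 0.39 and -2.08 ± 0.68 (adjusted p = 0.071 and 0.12), but did with the replicate number as a block (0.046 and 0.048), in DESeq2 (0.011 and 0.013) and in edgeR without either colon LP control library. Without the KO epithelial library, the calls of Nr4a1, Nr4a2 and Nr4a3 against colon LP were lost (-1.29, -1.20 and -2.43, adjusted p = 0.11, 0.17 and 0.19). Nr4a3 also lost its call there without the control epithelial library (-3.15, adjusted p = 0.085), and the call of Nr4a1 against small intestinal LP was lost without its KO library or the KO epithelial library (adjusted p = 0.11 and 0.14). With all cells counted, both Nr4a1 calls were lost (-1.70 and -2.23, adjusted p = 0.066 and 0.082).

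Egr2 in the epithelium against colon LP kept its call without each of the 12 libraries in turn, with log2 fold changes of 1.99 to 3.72. Against small intestinal LP that call was lost without either small intestinal library or the control epithelial library (adjusted p = 0.18, 0.10 and 0.12). Restricted to replicate 2 libraries, the only ones with all 4 tissues, the epithelial contrasts with colon LP gave adjusted p of 0.10 for Nr4a2 and 0.063 for Nr4a3, and those with spleen 0.057 for Egr2 and 0.11 for Egr1. Small intestinal and colon LP did not part for any of the 5 genes, with log2 differences of -0.68 to 0.31 and adjusted p of 0.67 to 0.93, and 0.00885% of genes called. A p-value that misses the threshold does not show that the levels are alike.

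**Figure D2:**
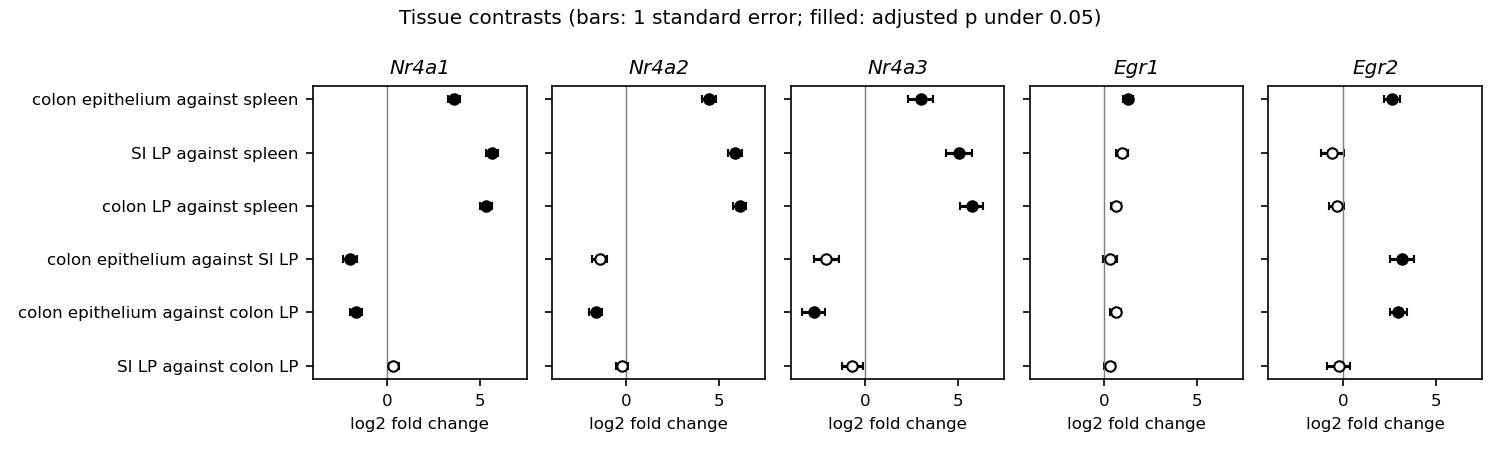
Log2 fold change of the 5 tested genes in 6 tissue contrasts (edgeR, 12 libraries), with the first named tissue over the second. Bars are 1 standard error, and filled points passed an adjusted p of 0.05. The Nr4a genes lie at 2.99 to 6.10 in gut against spleen, and Egr2 lies at 2.66 to 3.21 in the 3 contrasts with the epithelium on top.

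Markers of other cells and of cell handling differed between libraries as well, and not by tissue alone. The summed CPM of 20 other immediate early genes was 8710 to 10617 in the epithelium, 13884 to 20045 in small intestinal LP, 9851 to 17824 in colon LP and 3785 to 4982 in spleen. The 11 heat shock genes summed to 5023 to 7948 in the epithelium, 5339 to 15302 in small intestinal LP, 5031 to 20156 in colon LP and 4527 to 6668 CPM in spleen. In the control libraries of replicate 2 they were close, at 5023 CPM in epithelium, 5339 in small intestinal LP, 5031 in colon LP and 4534 in spleen. The higher LP sums were in KO libraries and in replicate 1 of colon LP, whose control library held 13282 CPM. The 7 innate lymphoid and NK cell genes summed to 167 and 183 CPM in the epithelium, 411 to 553 in the LP libraries and 133 to 166 in spleen, with Ncr1 at 0 in 4 libraries. Epithelial genes summed to 339 CPM in the KO and 22.9 CPM in the control library of colon epithelium, against 9.98 to 33.3 in LP and 1.89 to 4.77 in spleen. Cd8a and Cd8b1 summed to 21.9 CPM in the KO and 14.7 CPM in the control library of the epithelium, and to 1.96 to 17.2 CPM in the other libraries. The part of these cells and programmes in the tissue differences was not tested. Without cells that held a UMI of the 36 markers of other cell types, the Nr4a3 call in epithelium against spleen was lost (adjusted p = 0.055) and Egr1 in small intestinal LP against spleen passed (0.038). Of the 5 B and plasma cell markers among the 36, only 3 had a row in the matrix.

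Genes induced by the antigen receptor were higher in gut than in spleen. Of 30 antigen receptor induced genes, 23 rose and 0 fell in colon LP against spleen, 21 and 0 in small intestinal LP, and 14 and 0 in the epithelium, with median log2 changes of 2.41, 2.41 and 1.33 beside medians of -0.04, -0.04 and -0.02 over all genes. Genes called higher made up 18.7%, 11.3% and 4.35% of all genes in these contrasts, and genes called lower 18.9%, 8.93% and 2.74%. Tnfaip3, which encodes the NF-kappaB inhibitor A20, rose by 5.24 ± 0.21 in colon LP, and Irf4, a factor induced in proportion to receptor signal strength, by 3.28 ± 0.16. In the epithelium the leading gene was Rgs1, a regulator of G protein signalling, at 4.81 ± 0.25 over spleen.

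Of 19 other immediate early genes tested, 16 rose and 1 fell in each LP against spleen, and 8 rose and 1 fell in the epithelium. Beside these and the next counts, genes called higher were 18.7% of all genes in colon LP, 11.3% in small intestinal LP and 4.35% in the epithelium. Dusp1, a MAP kinase phosphatase, rose by 4.56 ± 0.27 in colon LP, 5.05 ± 0.29 in small intestinal LP and 4.27 ± 0.28 in the epithelium. Heat shock genes rose for 8 of 11 in colon LP, 1 of 11 in small intestinal LP and 0 of 11 in the epithelium. Of the calcineurin and NFAT genes, 1 of 8 rose in each LP, which was Nfatc2 (0.80 ± 0.18 in colon and 1.09 ± 0.21 in small intestine), and 0 of 8 in the epithelium. Of 15 genes of proximal receptor signalling, 4, 3 and 2 rose in colon LP, small intestinal LP and epithelium, led by Cd28 in the LP (1.44 ± 0.15 and 1.28 ± 0.17) and Cd3g in the epithelium (0.69 ± 0.14), a gene that helped choose the cells. Of 2 tested retinoid X receptor genes, which encode NR4A dimer partners, Rxra fell in small intestinal LP (-1.45 ± 0.47, adjusted p = 0.0496) and none was called in colon LP or epithelium.

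Of the EGR co-repressors, Nab2 rose in the epithelium, by 0.95 ± 0.16 over spleen, 0.86 ± 0.16 over colon LP and 1.25 ± 0.20 over small intestinal LP (edgeR, adjusted p = 0.0040, 0.0048 and 0.0062), and Nab1 rose in colon LP (0.92 ± 0.20, adjusted p = 0.0043) and small intestinal LP (0.77 ± 0.24, adjusted p = 0.043) over spleen. Nab1 did not pass in the epithelium against colon LP (-0.74 ± 0.25, adjusted p = 0.061) or small intestinal LP (-0.59 ± 0.28, adjusted p = 0.27). Of 14 Egr2 and Egr3 target and anergy genes, 2 rose and 3 fell in the epithelium against colon LP, where 8.52% and 10.8% of all genes were called higher and lower. Crtam, a class I-restricted T cell-associated molecule, rose by 2.42 ± 0.48 and Lag3, an inhibitory receptor, by 1.89 ± 0.43, while Il2ra, the high-affinity interleukin-2 receptor chain (-1.71 ± 0.48), and Ndrg1, an anergy gene (-3.59 ± 1.03), fell. Against spleen, 7 of the 14 rose and 4 fell in colon LP (18.7% and 18.9% of all genes), 0 rose and 1 fell in small intestinal LP (11.3% and 8.93%), and 1 rose and 1 fell in the epithelium (4.35% and 2.74%).

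Of 7 exhaustion genes linked to NR4A, 2 rose and 0 fell against spleen in colon LP, 2 rose and 1 fell in small intestinal LP, and 2 rose and 0 fell in the epithelium, with median log2 changes of 0.08, 0.06 and -0.19. Of all genes, 18.7%, 11.3% and 4.35% were called higher in these 3 contrasts, and 18.9%, 8.93% and 2.74% lower. Ctla4 rose in all 3, by 5.47 ± 0.25 in colon LP, 4.99 ± 0.26 in small intestinal LP and 2.43 ± 0.25 in the epithelium. Tigit, an inhibitory receptor, rose in colon LP (2.70 ± 0.41) and small intestinal LP (2.42 ± 0.49), and Havcr2, which encodes TIM-3, fell in small intestinal LP (-1.75 ± 0.53, adjusted p = 0.039). Pdcd1, which encodes PD-1, took the other course, with rises in the epithelium of 0.82 ± 0.22 over spleen, 0.75 ± 0.22 over colon LP and 1.52 ± 0.27 over small intestinal LP (edgeR, adjusted p = 0.040, 0.033 and 0.010). In the epithelium against colon LP, 1 of 7 rose and 2 fell, the falls being Ctla4 (-3.04 ± 0.30) and Tigit (-2.89 ± 0.54). Among the 30 receptor-induced genes 4 rose and 14 fell in that contrast, with Irf4 at -2.95 ± 0.20 and Tnfaip3 at -2.56 ± 0.24, where 8.52% and 10.8% of all genes were called higher and lower. Against small intestinal LP 2 rose and 9 fell, where 1.26% and 3.25% were called higher and lower.

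Across the 12 libraries the genes whose levels ran most like Nr4a1 were Itpr1, which encodes an inositol trisphosphate receptor, Mxd1, a MYC antagonist, and Nr4a2, all with Pearson r of 0.987 on log2(CPM + 1) among 6762 other genes at 10 CPM or more on average. Nr4a3 stood at 0.960 with Nr4a1 (rank 36) and 0.965 with Nr4a2, and ran most like Il21r (0.990), Lilr4b (0.985) and Tnfrsf1b (0.984). Egr2 ran most like Ubash3b, a phosphatase gene that restrains receptor signalling (0.926), Tnf (0.896) and Galm (0.881). Its r with Nr4a1 was -0.03 and with Egr1 0.650. Egr1 ran most like Pxn (0.948), Arhgap17 (0.943) and Rhoh (0.892). These are descriptions over libraries that share tissue, preparation and depth.

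Single cells were counted beside these sums. To compare cells of different depth, each cell was thinned to 1500 UMIs, which left out 0 to 21.4% of CD3-positive cells per library. Nr4a1 was then seen in 6.52% of KO (193 of 2960) and 7.91% of control (263 of 3325) epithelial cells, 34.7% of KO and 27.5% of control small intestinal LP cells, 21.0% and 31.3% of KO and 25.7% and 19.2% of control colon LP cells, and 2.10% and 0.586% of KO and 0.528% and 0.395% of control spleen cells. Exact binomial 95% intervals were 5.66% to 7.47% and 7.01% to 8.88% in the KO and control epithelium. Unthinned, the shares were 11.2% and 13.2% in KO and control epithelium, 32.9% to 53.1% in the LP libraries and 0.874% to 5.76% in spleen.

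Egr2 was seen in 2.50% of KO and 3.79% of control epithelial cells after thinning (unthinned 3.82% and 5.75%), 0.939% of KO and 0.167% of control small intestinal LP cells, 0.324% to 0.747% of colon LP cells and 0.176% to 0.938% of spleen cells. Nr4a2 was seen in 5.41% of KO and 6.41% of control epithelial cells, 11.0% to 24.2% of LP cells and 0.231% to 0.528% of spleen cells. Egr1 was seen in 4.97% of KO and 3.76% of control epithelial cells, 1.97% to 5.01% of LP cells and 1.73% to 4.33% of spleen cells. Cells with no CD3 UMI could not stand for a type that lacks Nr4a1, since 26.1% to 64.6% of them in the LP libraries held an Nr4a1 UMI at the same thinned depth, from 17 to 260 cells each. Egr1 was likewise seen in 5.88% to 30.4% of them in the LP libraries, in 15.5% of 58 such cells in the KO epithelium and 0 of 5 in the control epithelium, and in 0 to 10.3% in spleen, so its shares in CD3-positive cells of LP, KO epithelium and replicate 1 spleen were below those of cells with no CD3 UMI. For Egr2 that share was 0 to 2.13% in the 12 libraries, with 0 of 58 such cells in the KO epithelium and 0 of 5 in the control epithelium. Before thinning, the median depth was 1346 to 5739 UMIs in cells with no CD3 UMI, against 2273 to 5690 in CD3-positive cells.

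The epithelium had a smaller share of Nr4a1-positive cells than the LP, and its UMIs per positive cell lay within the LP range. A positive cell holds at least 1 UMI by definition, and the share of positive cells also depends on the RNA per cell. These values therefore cannot part fewer expressing cells from less RNA per cell. Thinned Nr4a1-positive cells held 1.35 UMIs each in KO and 1.57 in control epithelium, 1.57 in KO and 1.34 in control small intestinal LP, and 1.27 to 1.42 in colon LP. Nr4a2-positive cells held 1.44 UMIs in KO and 1.71 in control epithelium and 1.28 to 1.44 in the LP libraries. In the control epithelium, 38 cells with 3 or more Nr4a2 UMIs held 42.9% of its thinned Nr4a2 UMIs, and 13 such cells held 25.5% in the KO epithelium, against 10.4% to 19.8% in the LP libraries. At least 1 of the 6 genes was seen in 16.0% of KO and 15.5% of control epithelial cells, 30.1% to 51.3% of LP cells and 2.73% to 7.22% of spleen cells.

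The co-occurrence of these genes in the same cells was compared within each library by parting its thinned cells into those with and without an Nr4a1 UMI, and summing each set. A cell without an Nr4a1 UMI among 1500 may still express the gene, and Nr4a1 itself was not tested. Over the 12 libraries, with library as a term, Egr2 rose in Nr4a1-positive cells by 2.74 ± 0.19 on the log2 scale and Egr1 by 1.47 ± 0.14 (edgeR, adjusted p = 4.2e-42 and 6.4e-24), each higher in 11 of 12 libraries. Such small p rest largely on the spread pooled over genes. They do not measure how far these 2 genes varied between libraries, and the smallest p of the split fits below share this limit. Egr2 had 0 to 12 UMIs in the Nr4a1-positive part of each spleen and LP library, and 22 and 83 in KO and control epithelium. In this comparison 1.19% of 8369 genes were called, 0.98% higher and 0.215% lower. Spleen had only 6 to 20 positive cells per library, and without the 4 spleen libraries the values were 2.55 for Egr2 and 1.45 for Egr1 (adjusted p = 1.9e-11 and 0.0020). Nr4a2 and Nr4a3 did not pass, at 1.04 ± 0.39 and 0.54 ± 0.35 (adjusted p = 0.45 and 0.75), and were higher in 10 and 8 of 12 libraries. With library left out of the model 2 genes were called, and Egr1 kept its call (adjusted p = 0.027) while Egr2 did not pass the filter.

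The split differed between epithelium and LP for the other 2 Nr4a genes. Nr4a2 measured 276 CPM in Nr4a1-positive against 36.4 CPM in Nr4a1-negative cells of the KO epithelium, and 466 against 39.2 CPM in the control epithelium. In small intestinal LP it measured 231 against 176 CPM in the KO and 191 against 116 CPM in the control library. In colon LP it measured 253 against 204 and 209 against 183 CPM in the KO libraries, and 257 against 191 and 131 against 87.6 CPM in the control libraries. All 8 gut libraries had more Nr4a2 in Nr4a1-positive cells, by a wide margin in the epithelium and a narrow one in the LP. Nr4a1 was seen in 32.9% to 53.1% of LP cells unthinned and 19.2% to 34.7% thinned. In KO and control epithelium it was seen in 11.2% and 13.2% unthinned, and in 6.52% and 7.91% thinned. The Nr4a1-negative parts can thus hold missed positive cells, and their part in the difference between compartments was not tested.

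A fit chosen after seeing these values, with separate terms for the 2 compartments in the 8 gut libraries, gave an Nr4a2 log2 change of 3.35 ± 0.14 in the epithelium and 0.40 ± 0.07 in the LP, a difference of 2.95 ± 0.15 (edgeR, adjusted p = 1.1e-32). This p too rests largely on the spread pooled over genes. Of 8067 genes, 1.59% were called for that difference, 1.39% with the larger change in the epithelium; 2.99% were called in the epithelium alone and 1.05% in the LP alone. Nr4a3 changed by 3.26 ± 0.41 in the epithelium and did not pass in the LP at 0.25 ± 0.14, a difference of 3.01 ± 0.42 (adjusted p = 3.8e-08), which was 2.58 with adjusted p of 0.054 without the control epithelial library. Egr1 rose in both, by 2.13 ± 0.23 in the epithelium and 1.08 ± 0.17 in the LP, a difference of 1.05 ± 0.27 (adjusted p = 0.017), which was lost without the control epithelial library (0.31, adjusted p = 0.93), without KO replicate 2 of colon LP (0.998, adjusted p = 0.052) or in DESeq2 (adjusted p = 0.24). Egr2 rose in both, by 2.90 ± 0.23 in the epithelium and 1.57 ± 0.38 in the LP, and that difference did not pass (1.33 ± 0.45, adjusted p = 0.15), although it did without the KO epithelial library (1.75, adjusted p = 0.021). In the LP, Egr2 had only 1 to 12 UMIs in the Nr4a1-positive part of each library and 2 to 9 in the Nr4a1-negative part. The epithelium has 1 library per genotype, so its values rest on 2 libraries. Nab2 followed Nr4a2, at 2.11 ± 0.19 in the epithelium and 0.06 ± 0.18 in the LP, a difference of 2.05 ± 0.25 (adjusted p = 6.3e-10). Of 28 receptor-induced genes, 21 rose in Nr4a1-positive cells of the epithelium, where 2.38% of all genes were called higher, and 9 in those of the LP, where 0.93% were, and 14 differed between the compartments. Of 19 other immediate early genes, 9 rose in the epithelium, 10 in the LP and 6 differed.

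**Figure D3:**
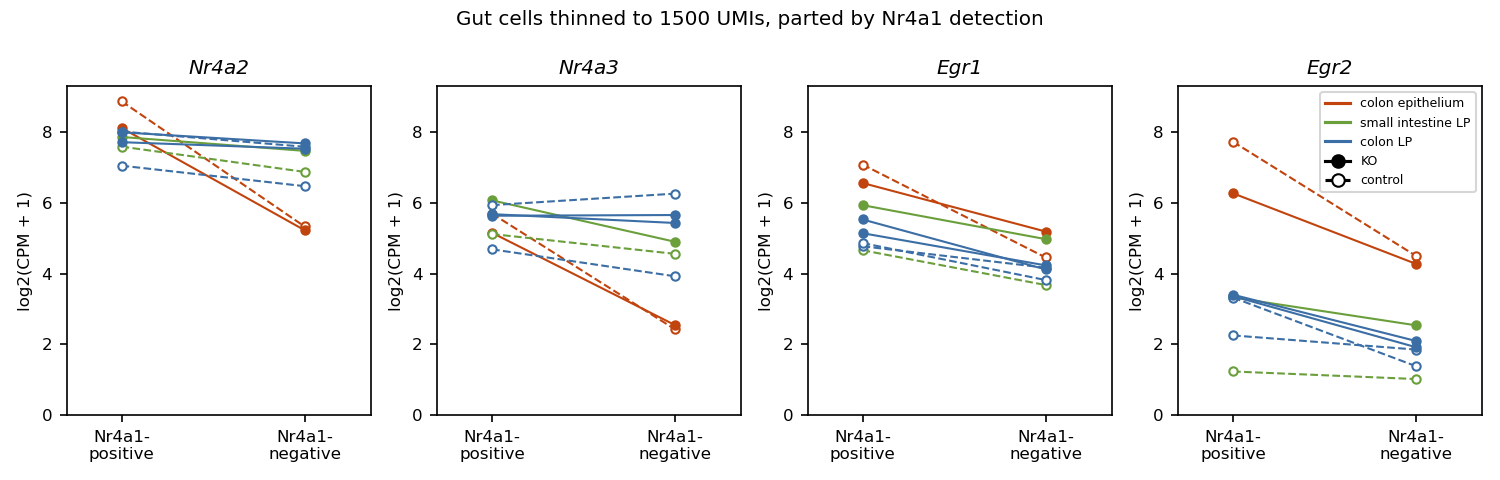
Level of 4 genes, as log2(CPM + 1), in Nr4a1-positive (left) and Nr4a1-negative (right) cells of each of the 8 gut libraries, thinned to 1500 UMIs; lines join the 2 parts of a library, solid for KO and dashed for control. Both epithelial libraries (orange) fall steeply for Nr4a2, with 276 against 36.4 CPM and 466 against 39.2 CPM, while the 6 LP libraries fall less.

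Counted by cell, Nr4a1 was seen in 19 of 74 Egr2-positive cells of the KO epithelium (25.7%), against 6.03% of its other cells, and in 54 of 126 Egr2-positive cells of the control epithelium (42.9%), against 6.53% of the others. Nr4a2 was seen in 19.2% of Nr4a1-positive and 4.45% of Nr4a1-negative cells of the KO epithelium, and in 30.04% and 4.38% of those of the control epithelium. In the 6 LP libraries these shares were 13.6% to 27.1% and 10.3% to 23.4%.

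The genes that rose with Nr4a1 in the same cells, among those at 20 CPM or more on average, were led after Egr2 and Egr1 by Tnfsf9 (1.31 ± 0.15), which encodes the 4-1BB ligand, Rgs16 (1.296 ± 0.15), a regulator of G protein signalling, Tnfsf14 (1.06 ± 0.17), which encodes LIGHT, and Csf1 (1.05 ± 0.15), a macrophage growth factor. Plk3 (0.82 ± 0.11), a polo-like kinase, Gadd45b (0.82 ± 0.08), Pdcd1 (0.72 ± 0.12) and Grasp (0.68 ± 0.17) followed. Their adjusted p in edgeR were 6.5e-21 to 4.9e-07, except for Pdcd1 (1.4e-05) and Grasp (0.0068). Plk3 was higher in 12 of 12 libraries and Rgs16 in 7. Genes that fell included Il7r (-0.40 ± 0.08), the interleukin-7 receptor chain of resting and memory cells, S1pr1 (-0.43 ± 0.12), Ccr7 (-0.48 ± 0.14) and Klf3 (-0.37 ± 0.10). Exosc4 (-0.50 ± 0.13), Pdrg1 (-0.42 ± 0.12), Serpinb1a (-0.41 ± 0.10), Ly6a (-0.39 ± 0.09) and Ccr2 (-0.35 ± 0.08) fell too. Of these, Il7r, Ly6a and Ccr2 were each lower in 11 of 12 libraries. The largest fall was the haemoglobin gene Hbb-bs (-4.98 ± 0.36), and red cell genes summed to 1506 CPM in control replicate 1 of colon LP, against 0 to 216 CPM in the other 11 libraries. Their part in that fall was not tested.

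By list, 11 of 19 other immediate early genes, 9 of 28 receptor-induced genes, 3 of 13 Egr2 and Egr3 target and anergy genes and 2 of 7 exhaustion genes rose in Nr4a1-positive cells and none of them fell, beside 0.98% of all genes called higher. Medians were 0.42, 0.44, 0.14 and 0.12, beside -0.03 for all genes. Zfp36 rose by 0.65 ± 0.10 and Jun by 0.52 ± 0.08, Cd69 by 0.50 ± 0.08 and Nfkbia by 0.60 ± 0.10, Crtam by 1.79 ± 0.27 and Lag3 by 0.68 ± 0.10. Of 11 heat shock genes 1 rose, Dnajb1 (0.40 ± 0.09). None of 15 proximal signalling genes or 7 calcineurin and NFAT genes was called over the 12 libraries. In the fit with separate terms for the compartments, 3 of 11 heat shock genes rose in the LP and 3 in the epithelium. There 1 of 15 proximal and 1 of 7 calcineurin and NFAT genes rose in the epithelium, and 0 of either in the LP. Genes called higher were 0.93% of all genes in the LP and 2.38% in the epithelium.

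The genotype comparison asked whether the interleukin-23 receptor genotype of the transferred cells changed these genes. None of the 5 tested genes passed in any genotype fit. In colon LP the KO minus control log2 changes were 0.30 ± 0.35 for Nr4a1, 0.43 ± 0.39 for Nr4a2, 0.15 ± 0.72 for Nr4a3, 0.44 ± 0.32 for Egr1 and 0.58 ± 0.54 for Egr2. In spleen they were 0.70 ± 0.41, 0.91 ± 0.52, 0.57 ± 1.22, 0.40 ± 0.33 and 0.83 ± 0.53. Over the 12 libraries with tissue as a term they were 0.32 ± 0.21, 0.38 ± 0.24, 0.27 ± 0.42, 0.55 ± 0.21 and 0.43 ± 0.35, of which Egr1 had the lowest unadjusted p (0.022, adjusted p = 1.0, edgeR). The difference between the colon LP and spleen effects did not pass for any gene (colon LP minus spleen of -0.49 to 0.04, adjusted p = 1.0).

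No gene at all was called in these 4 genotype fits (0% of 10976 genes in colon LP, in spleen and for their difference, and 0% of 11305 over 4 tissues), while 123, 128, 114 and 525 genes had an unadjusted p under 0.05. DESeq2 called 0, 3, 2 and 3, and edgeR with no filter on low counts called 83, 70, 68 and 6. List medians of KO minus control in colon LP were 0.22 for receptor-induced genes, 0.31 for other immediate early genes and 0.76 for heat shock genes, beside 0.00 for all genes, with 0 members called.

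The pairs of libraries did not move alike. In replicate 2 of colon LP the KO library was above the control library for all 5 genes, with ratios of 1.83 for Nr4a1 (exact conditional 95% interval 1.72 to 1.95), 2.02 for Nr4a2, 3.32 for Nr4a3, 1.86 for Egr1 and 1.73 for Egr2. In replicate 1 the ratios were 0.823 (0.772 to 0.878), 1.04, 0.694, 0.988 and 1.22. Heat shock genes measured 20156 CPM in the KO and 5031 CPM in the control library of replicate 2, and 14541 CPM in the KO and 13282 CPM in the control library of replicate 1. Their KO library was thus the higher one in both pairs, and their part in the ratios was not tested. Without control replicate 2, the fitted colon LP effects of Nr4a1, Nr4a2 and Nr4a3 turned to -0.024, -0.096 and -0.64.

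In small intestinal LP, with 1 library per genotype and no test, the KO library was above the control library for all 5 genes, with ratios of 1.45 for Nr4a1, 1.40 for Nr4a2, 1.78 for Nr4a3, 3.04 for Egr1 (2.21 to 4.19) and 2.70 for Egr2 from 10 and 12 UMIs. Heat shock genes measured 15302 CPM in that KO and 5339 CPM in that control library, and their part was not tested. In colon epithelium, again without a test, the KO library was below the control library for Egr2 (ratio 0.555, 0.468 to 0.656), Nr4a1 (0.763), Nr4a2 (0.776) and Nr4a3 (0.849, 0.616 to 1.16), and Egr1 was at 1.14 (0.981 to 1.32). Heat shock genes measured 7948 CPM in that KO and 5023 CPM in that control library. In spleen the ratios were 0.960 to 2.83 in the 2 pairs, from 5 to 165 UMIs per library. Macrophage genes were higher in the KO library of both spleen pairs, at 149.5 against 27.9 CPM in replicate 1 and 41.5 against 13.9 CPM in replicate 2. So were red cell genes, at 80.0 against 23.2 CPM and 216 against 1.79 CPM. Neutrophil, dendritic, and mast and basophil genes were also higher in KO in both. The stromal list was lower in KO in both, at 23.7 against 29.2 CPM and 24.9 against 36.5 CPM. Its replicate 1 sums came from Pecam1 alone, with Col1a1, Col1a2 and Col3a1 at 0. In replicate 2, Col1a2 and Col3a1 were at 0. These sums therefore do not show stromal cells. Epithelial genes, and B and plasma cell genes, went opposite ways in the 2 pairs. Cells with a UMI of any other-type marker, Pecam1 included, were 50.5% of KO against 32.0% of control cells in replicate 1. In replicate 2 they were 43.8% against 13.0%. Their part in the spleen ratios was not tested. These intervals compare libraries, not genotypes.

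**Figure D4:**
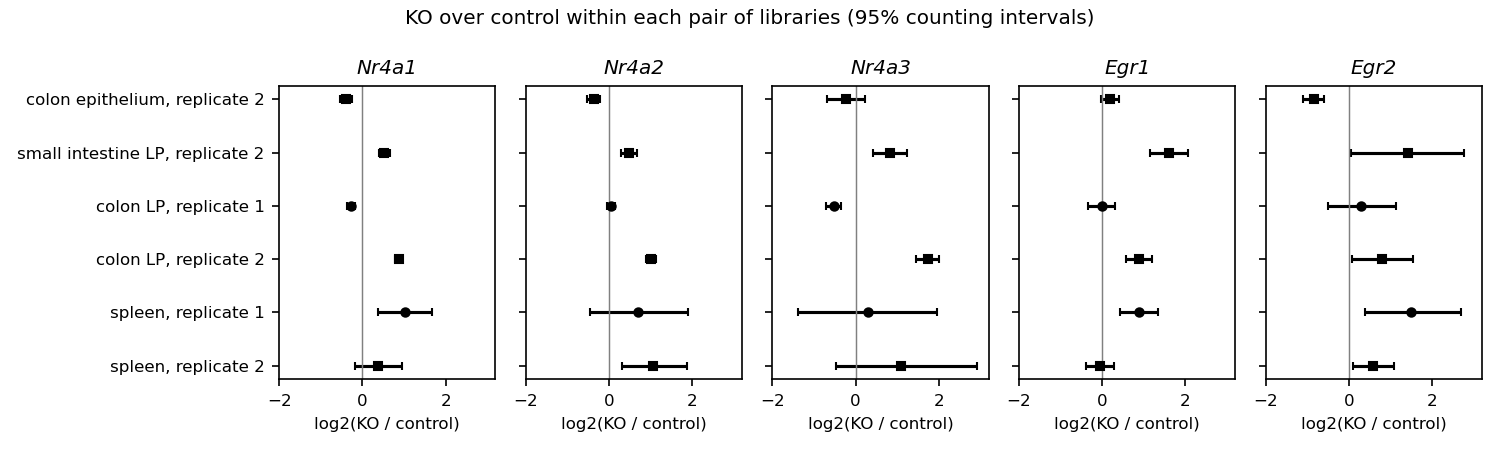
Log2 ratio of KO over control CPM within each of the 6 pairs of libraries for the 5 genes with enough UMIs, replicate 1 as circles and replicate 2 as squares. Bars are exact conditional 95% intervals and cover counting error only. Colon LP replicate 2 and small intestinal LP lie above 0 for all 5 genes, and the epithelial pair lies below 0 for all but Egr1.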

How the data were processed

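Per the labels, the authors made 10x Chromium 3′ version 2 libraries, and the deposited values are UMI counts per gene and cell. Cell Ranger 2.0.2 and the mm10 build appear in the submitters' processing notes, with no role stated. The authors' filters on cells and genes are unstated in those sources. No further cell filter and no doublet caller was applied, since channel loading is unstated too. In the cell table, 2 columns (its genotype and tissue) were left out. Groups came from the labels.

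Counts were summed per gene and library over CD3-positive cells, and CPM is per 1000000 of those UMIs. Low genes were removed by filterByExpr, TMM gave the scaling, and edgeR 4.0.16 (robust quasi-likelihood fits) in R 4.3.3 made the tests, with calls at an adjusted p of 0.05. Genotype in colon LP and spleen was fitted on 8 libraries, tissues on 12. Standard errors are the absolute log2 change over the square root of F. Scripts were tested on simulated counts. Thinning used seed 1. Alternatives were DESeq2 1.42.0, its size factors, no filter, all cells, cells without other-type markers, thinning to 1500 or 1000 UMIs, at most 10% mitochondrial UMIs, a replicate block, replicate 2 libraries only and each library left out. Libraries sharing a replicate number departed from their group means alike (r = 0.24 to 0.463 over 6 pairs of groups), so numbers were read as pairing the libraries. Pairing and a batch shared by such libraries cannot be told apart by this. The cell table also gives a batch number per cell, which no fit used. The main tissue and genotype fits held no replicate term, and the replicate block was an alternative only. The 6 genes, the 9 lists and the rule for naming genes (the 6 always, up to 4 list members with the smallest p per comparison, 10 each way for the split at 20 CPM or more, and 3 most alike per gene at 10 CPM or more) were chosen with earlier results of these data known. Promoter sequences are from RefSeq (GRCm38.p6).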

Additional observations from a re-analysis of the deposited data

Results flagged for a closer look

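The KO over control log2 ratio had opposite signs in different tissues for 4 of the 6 genes. In the colon epithelium it was -0.39 for Nr4a1, -0.37 for Nr4a2, -0.24 for Nr4a3 and -0.85 for Egr2, while both spleen pairs and the small intestinal pair were above 0 for these genes, and both colon LP pairs were above 0 for Nr4a2 and Egr2. The epithelium and small intestine have 1 pair each, so these differences were not tested. The 95% counting interval of the ratio held 1 for Nr4a3 in the epithelium (0.616 to 1.16) and in both spleen pairs. It also held 1 for Nr4a1 in replicate 2 of spleen, Nr4a2 in replicate 1 of spleen and of colon LP, and Egr2 in replicate 1 of colon LP. Those signs are within counting error. The difference between the colon epithelium and LP in how far Nr4a1-positive cells exceeded Nr4a1-negative cells was 2.95 for Nr4a2, 3.01 for Nr4a3 and 1.05 for Egr1, each past the threshold in a fit that was chosen after these values were seen and so restates them. The part of missed Nr4a1 in the Nr4a1-negative cells of each compartment was not tested. Without the control epithelial library the adjusted p was 0.054 for Nr4a3 and 0.93 for Egr1, and for Egr1 it was 0.052 without KO replicate 2 of colon LP and 0.24 in DESeq2. Among cells with no CD3 UMI, which no genotype comparison of CD3-positive cells uses, Nr4a1 measured 61.9 CPM in KO replicate 1 of spleen, from 37 UMIs in 107 cells, against 8.19 CPM in control replicate 1, from 6 UMIs in 169 cells, with exact 95% Poisson intervals that did not overlap. The other spleen pair went the other way, at 4.24 CPM in KO from 1 UMI against 31.2 CPM in control from 4 UMIs.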

How the results depend on the processing

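Of 1097 values of single genes recomputed under other settings, 1014 kept their direction and side of the threshold, 36 lost and 18 gained a call, and 29 changed sign. DESeq2 size factors and the mitochondrial limit changed none. Values that changed sign were all uncalled: between colon LP and spleen genotype effects, Egr1 was -0.29 in all cells and -0.19 thinned, and Egr2 0.082 thinned; Egr1 in epithelium against small intestinal LP was -0.26 in all cells; Nr4a2 and Nr4a3 in small intestinal against colon LP were 0.053 and 0.025 with the replicate block and 0.22 and 0.15 in replicate 2 libraries. With single libraries left out, the ranges holding a change of sign were -0.024 to 0.71 (Nr4a1), -0.096 to 1.23 (Nr4a2) and -0.64 to 1.90 (Nr4a3) for genotype in colon LP, -0.013 to 1.22 (Nr4a3) in spleen, -0.031 to 0.88 (Nr4a3) over 4 tissues, -0.85 to 0.11 (Nr4a1), -1.01 to 0.33 (Nr4a2), -1.21 to 1.34 (Nr4a3), -0.29 to 0.44 (Egr1) and -1.36 to 0.34 (Egr2) for colon LP minus spleen, -1.05 to 0.047 (Egr2) for small intestinal LP against spleen, -0.43 to 0.043 (Nr4a2), -0.42 to 0.88 (Egr1) and -0.78 to 0.38 (Egr2) for small intestinal against colon LP, and -0.25 to 0.998 (Egr1) for epithelium against small intestinal LP. Counts of called genes moved by over 1.5 times as follows, and the cause was not tested. With no filter they were 83, 70, 68 and 6 for genotype in colon LP, spleen, their difference and over 4 tissues (0 each with it), and 35 for small intestinal against colon LP (1). DESeq2 gave 3 in spleen, 2 for the difference, 3 over 4 tissues, 92 for small intestinal against colon LP, 831 for epithelium against small intestinal LP (510), 25 for the split by Nr4a1 (100) and 77 for its difference between compartments (128). Small intestinal against colon LP gave 5 in all cells, 6 without other-type marker cells, 10 thinned and 0 with the replicate block. The block gave 998 for epithelium against small intestinal LP, and leaving library out gave 2 for the split. Replicate 2 libraries alone gave 2435 for colon LP against spleen (4252), 1360 for epithelium against colon LP (2188) and 1304 for epithelium against small intestinal LP. Beside the values given with the results, the replicate block changed no other call of the 6 genes. Leaving out single libraries gave 0 to 1 for genotype in colon LP, 0 to 1 in spleen and 0 to 1 for their difference, 0 to 63 for small intestinal against colon LP, 881 to 2421 for small intestinal LP against spleen (2284), 217 to 897 for epithelium against spleen (802), 230 to 2843 for epithelium against colon LP, 74 to 669 for epithelium against small intestinal LP, and 24 to 129 for the difference of the split. The lowest counts with the epithelium came without its KO library, that for small intestinal LP against spleen without its KO library and that for the split difference without the control epithelial library; a lone library is there assumed to vary like the others. At least 1 gene was seen in 26.2% of cells on average over libraries, 19.8% when thinned to 1000 UMIs and 38.5% unthinned. Egr3, with 0 to 3 UMIs per library, and splenic Nr4a3, with 5 to 14, are limited by depth.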
